A study of Mus musculus with 9 samples.

Results

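Expression of 8 genes with little recorded history in axial elongation, *Cpn1*, *Gpr83*, *Lix1*, *Scara5*, *Samd9l*, *Ttyh1*, *Gcnt2* and *Tpd52*, was compared in the 3 tail regions of the mouse embryo at E10.5. The genes were chosen because they stood far above the presomitic mesoderm (PSM) in both the chordoneural hinge (CNH) and the tailbud mesoderm (TBM). In the TBM this held less well for *Ttyh1*, at least 1.21-fold above the PSM, and *Tpd52*, at 1.85-fold. They are 8 of 7820 named genes tested. The array carries 22 probes annotated to them, among 45281, and 12 of these 22 were seen on every array of 1 region or more and entered the test. All embryos were wild type. Many pieces of each region were pooled before RNA was extracted, and each region was measured on 3 Illumina Ref6v2 BeadArrays, which the methods describe as 2 biological replicates and 1 technical replicate without saying which is which. The p-values therefore measure the spread between these arrays, part of which is technical. Pregnant females of the CD1 and C57Bl/6J strains are named in the methods but not assigned to arrays. As a dissected piece holds several cell types, fewer cells of a type and less RNA per cell cannot be told apart.

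The CNH holds stem-like progenitors of the neural tube, notochord and paraxial mesoderm, and its cells feed the TBM, whose descendants enter the PSM and bud off as somites. The best known genes of this region encode signals and transcription factors of the FGF, WNT and T-box families. The 8 genes described here act elsewhere in the cell, as a secreted protease, a glycan-branching enzyme, 3 membrane proteins and 3 intracellular proteins, and they share no pathway. They lie on 8 different chromosomes.

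Signals are given as log2 of the background-corrected, quantile-normalized intensity, and a probe was detected when its detection p-value was below 0.01. The lowest value among detected probes was 4.83 to 4.98 on the 9 arrays. Between 30.1% and 32.7% of probes were detected per array. The regions were described with markers, whose lists were written with earlier results of these data known, so that they are no independent check. All 10 axial progenitor markers were higher in the CNH than in the PSM, with a median log2 difference of 3.03, and 6 of 8 tested presomitic and somitic markers were lower, with a median of -3.43. The arrays of replicate 3 stood apart from those of replicates 1 and 2 in every region. Over all tested probes, replicate 3 differed from the mean of replicates 1 and 2 by a median size of 0.666 on the log2 scale, against 0.069 between replicates 2 and 1. The replicate number was therefore kept as a block in the limma model, and differences are also given within each number. As the genes were chosen on their differences from the PSM, those differences are a description and no p-value is given for them. The comparison of CNH with TBM was not used for the choice, although it shares its arrays.

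In all 8 genes the mean level was highest in the CNH, intermediate in the TBM and lowest in the PSM. The low place of the PSM follows from the choice of the genes. For *Scara5* the CNH and TBM means were close (7.38 and 7.26, SDs 1.19 and 0.86), and in replicate 3 the TBM was higher. At 5 of the 8 genes, *Cpn1*, *Lix1*, *Scara5*, *Samd9l* and *Ttyh1*, no PSM array detected the probe, so that only a lower bound of the fold can be given. These bounds ran from 2.41-fold to 16.5-fold in the CNH and from 1.21-fold to 5.03-fold in the TBM. They are bounds on the mean of the arrays on the scale used here, and they do not hold on every other scale. *Gpr83* was detected on 1 of 3 PSM arrays. *Gcnt2* and *Tpd52* were detected on all 9 arrays. With the 5 genes at their bounds, the median log2 difference of the 8 genes from the PSM was 2.47 in the CNH and 1.81 in the TBM (2.79 and 2.11 as fitted), against -0.044 and -0.018 over all tested probes. All 8 met the rule for a call in both regions, beside 6.66% of probes called higher in the CNH and 5.37% in the TBM, and 4.37% in both. Their choice required this, and nothing is read from it.

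**Figure D1:**
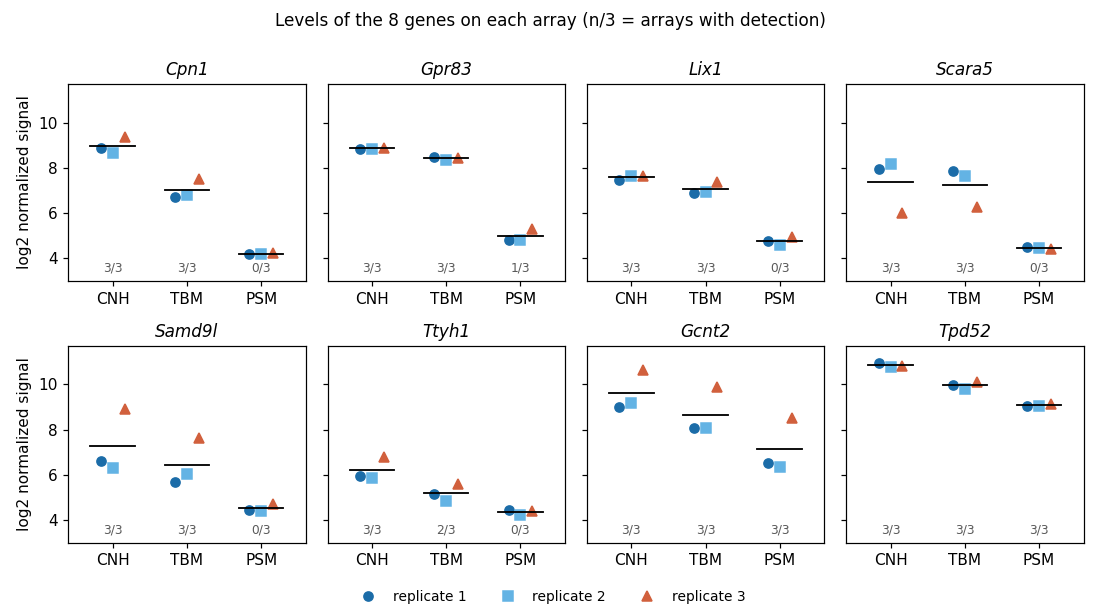
Log2 normalized signal (y axis) of the probe that stands for each of the 8 genes, in the CNH, TBM and PSM (x axis). Each point is 1 array, shaped and coloured by replicate number, the bar is the mean of 3 arrays, and the fraction is the number of arrays with detection. *Gpr83*, *Lix1* and *Tpd52* have SDs of at most 0.28 in a region. Replicate 3 is set apart in *Scara5* (low in CNH and TBM), *Samd9l* (high in CNH and TBM) and *Gcnt2* (high in all regions).

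*Cpn1* encodes the catalytic subunit of carboxypeptidase N, a plasma enzyme made in the adult liver that trims basic residues from the ends of kinins and complement peptides. Its log2 signal was 8.89, 8.66 and 9.36 on the CNH arrays of replicates 1, 2 and 3. On the TBM arrays it was 6.71, 6.81 and 7.51, and on the PSM arrays 4.18, 4.20 and 4.23. The 3 regions did not overlap, and the PSM values lay below the lowest detected probe. Against the PSM, *Cpn1* was higher by at least 16.5-fold in the CNH and by at least 4.24-fold in the TBM on this scale. With the values deposited by the authors its fitted log2 differences were 1.53 and 0.6, which lie below these bounds. A second probe of the same transcript gave bounds of 6.08-fold and 1.97-fold. Both probes lay above the PSM in both regions. Another probe, made against another transcript record, was detected on 1 array only.

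The promoter window of *Cpn1* is shown because this gene had the largest difference between the tailbud regions among the 8. It runs from 250 bases before to 50 after the annotated start, at chr19:43986471-43986770 on the minus strand (GRCm38.p6, RefSeq), and a match to a TCF/LEF core, through which WNT signals reach target genes, is in capitals.
Cpn1: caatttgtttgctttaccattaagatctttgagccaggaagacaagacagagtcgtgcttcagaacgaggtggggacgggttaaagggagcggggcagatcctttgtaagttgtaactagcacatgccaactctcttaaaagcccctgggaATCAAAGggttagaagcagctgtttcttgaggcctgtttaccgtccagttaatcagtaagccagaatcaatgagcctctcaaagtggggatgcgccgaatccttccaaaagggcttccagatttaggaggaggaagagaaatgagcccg
The match begins 99 bases before the start. This core (CTTTGAT, either strand) occurs in 3.73% of all 32851 promoter windows. Windows were found for 6 of the 8 genes, 8 windows in all, and the other searches were for a T-box site (AGGTGTGA, in 1.28% of all windows), a CDX site (TTTATGG, in 2.75%) and an interferon response element (in 3.44%), each on both strands. Matches were found in 2 of the 8 windows, those of *Cpn1* and *Ttyh1*. A match of letters is a description and not a site.

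*Gcnt2* encodes the enzyme that adds branches to poly-N-acetyllactosamine chains and so makes the I blood group antigen. Its log2 signal was 9.0, 9.17 and 10.64 in the CNH, 8.08, 8.05 and 9.86 in the TBM, and 6.53, 6.33 and 8.50 in the PSM, in the order of replicates 1 to 3. Replicate 3 was highest in every region, and with the numbers pooled the regions overlapped. Within each number the order was CNH, TBM, PSM. The CNH exceeded the PSM by 2.48, 2.84 and 2.13 in the 3 numbers and the TBM did so by 1.55, 1.71 and 1.35. The other 4 probes of *Gcnt2* were detected on no array, so that its values rest on the bright probe alone. Of these 4, 2 were made against the same record as the bright probe and 2 against other transcripts. *Gcnt2* has alternative first exons, but the positions of the probes were not examined.

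*Gpr83* is a G protein-coupled receptor expressed in the brain and in regulatory T cells. The CNH arrays had log2 signals of 8.85, 8.85 and 8.88, the TBM arrays 8.50, 8.34 and 8.44, and the PSM arrays 4.82, 4.80 and 5.29. The SD was 0.02 in the CNH and 0.08 in the TBM, the smallest among the 8 genes in these regions. The single PSM detection was replicate 3, at the highest of the PSM values. The fitted log2 difference from the PSM was 3.89 (standard error 0.13) for the CNH and 3.46 (0.13) for the TBM, and these rest on PSM signals near background. A second probe of the same record was detected on 1 CNH array only. The promoter window of *Gpr83*, shown for the gene with the smallest spread between tailbud arrays, lies at chr9:14859960-14860259 on the plus strand and held none of the motifs.
Gpr83: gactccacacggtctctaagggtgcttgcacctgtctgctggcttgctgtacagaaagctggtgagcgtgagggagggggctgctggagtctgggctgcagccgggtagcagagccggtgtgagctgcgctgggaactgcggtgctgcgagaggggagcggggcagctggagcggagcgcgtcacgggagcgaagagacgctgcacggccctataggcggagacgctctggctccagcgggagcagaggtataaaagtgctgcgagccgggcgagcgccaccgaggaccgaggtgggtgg

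*Scara5* is a class A scavenger receptor that binds ferritin and carries iron into cells. Replicates 1 and 2 read 7.95 and 8.18 in the CNH and 7.88 and 7.62 in the TBM, but replicate 3 read 6.01 and 6.27. The PSM values were 4.52, 4.44 and 4.43, with detection on none of them. The bounds over the PSM were 5.48-fold for the CNH and 5.03-fold for the TBM. The other probe of *Scara5*, made against a different record, was detected on 1 PSM array and nowhere else.

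*Ttyh1*, a member of the tweety family of membrane proteins that is abundant in neural tissue, lay close to background in the TBM. The log2 signal was 5.96, 5.84 and 6.79 in the CNH, 5.16, 4.84 and 5.59 in the TBM and 4.42, 4.23 and 4.38 in the PSM. Only 2 of 3 TBM arrays detected it. The bounds were 2.41-fold for the CNH and 1.21-fold for the TBM over the PSM. Of 2 further probes, both made against another transcript, 1 was detected on a single CNH array and the other on none. The promoter window of *Ttyh1*, at chr7:4119280-4119579 on the plus strand, is shown for its match to the interferon response element (capitals), 237 bases before the start.
Ttyh1: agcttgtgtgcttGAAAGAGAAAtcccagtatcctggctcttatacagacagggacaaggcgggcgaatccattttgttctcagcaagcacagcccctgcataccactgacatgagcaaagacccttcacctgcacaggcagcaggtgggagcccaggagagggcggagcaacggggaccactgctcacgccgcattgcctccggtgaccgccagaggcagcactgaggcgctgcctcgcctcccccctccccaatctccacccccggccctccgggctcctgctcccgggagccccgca

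*Lix1*, first described in the developing limb of the chick, had the most probes with signal. Its brightest probe read 7.48, 7.66 and 7.63 in the CNH, 6.91, 6.92 and 7.37 in the TBM and 4.76, 4.61 and 4.92 in the PSM, without overlap between regions. The PSM did not detect it, and the bounds were 6.34-fold for the CNH and 4.41-fold for the TBM. The other 3 tested probes of the same record gave bounds of 4.36, 3.16 and 1.45 for the CNH and 3.28, 2.53 and 1.12 for the TBM. All 4 probes lay above the PSM in both regions, and none of the 4 was detected there.

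*Samd9l* encodes a large cytoplasmic protein induced by interferon. It read 6.61, 6.30 and 8.93 in the CNH, 5.66, 6.02 and 7.61 in the TBM and 4.45, 4.41 and 4.72 in the PSM. Replicate 3 stood above the other arrays in both tailbud regions, and its TBM value exceeded the CNH values of replicates 1 and 2. On the mean of the arrays, the bounds over the PSM were 5.11-fold for the CNH and 2.84-fold for the TBM. Replicate 3 raised both. With replicates 1 and 2 only, the fitted log2 differences were 2.02 and 1.41, which lie below these bounds. The array holds 1 probe for it.

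*Tpd52*, a coiled-coil protein of membrane traffic that is overexpressed in several human tumours, was detected on every array. It read 10.96, 10.77 and 10.81 in the CNH, 9.96, 9.79 and 10.12 in the TBM, and 9.04, 9.03 and 9.14 in the PSM. The regions did not overlap, and the SD within a region was 0.06 to 0.16. The fitted folds over the PSM were 3.43 for the CNH and 1.85 for the TBM. A second probe, made against another transcript, was detected on 1 CNH and 1 PSM array.

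**Figure D2:**
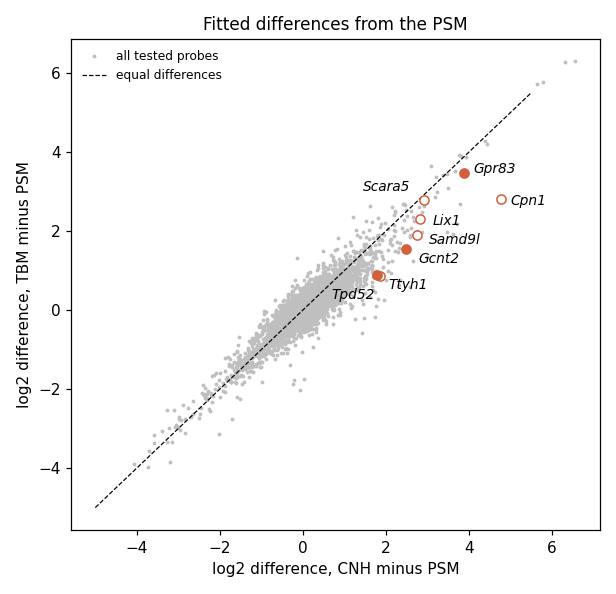
Fitted log2 difference of the TBM from the PSM (y axis) against that of the CNH from the PSM (x axis). Grey points are the 12437 tested probes, orange points the 8 genes and the dashed line marks equal differences. Open points are the 5 genes that no PSM array detected, whose differences from the PSM are fitted against background. All 8 lie to the right of the line, *Scara5* and *Gpr83* nearest to it and *Cpn1* furthest from it. Both axes share the PSM arrays, so the spread along the diagonal is no independent result.

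For *Gcnt2* and *Tpd52*, which every PSM array detected, the TBM stood 62.0% and 49.9% of the way from the PSM to the CNH on the log2 scale. The fitted sizes of the differences from the PSM also depended on the scale. With the values deposited by the authors they were 0.32 to 1.53 in the CNH (median 1.00) and 0.14 to 1.05 in the TBM (median 0.62). Without background correction the medians were 1.64 and 1.19. None of the differences changed sign under any alternative. As the genes were chosen on these differences, nothing is read from this.

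The CNH and TBM were then compared with each other, the contrast not used in choosing the genes. *Cpn1*, *Ttyh1*, *Gcnt2* and *Tpd52* were higher in the CNH by limma (adjusted p over 12437 probes below 0.05 and at least 1.5-fold), and the other 4 were not called. The call of *Ttyh1* is conditional on the filter, which it passed through the CNH only. With all dim probes kept, limma did not call it (adjusted p = 0.154). Of all tested probes, 1.01% were called in this comparison, 0.78% as higher in the CNH and 0.225% as lower. The 3 CNH arrays all lay above the 3 TBM arrays for 5 of the 8 genes (2.51% of all probes), and the CNH lay above the TBM within every replicate number for 7 of the 8 (16.6% of all probes). Among the 543 probes called above the PSM in both regions, which the rule resembles, 35 (6.45%) were also called with more signal in the CNH than the TBM, and 66.9% lay above the TBM in the fit. The genes were picked by hand among those with high CNH signals, so that their share is not read as a property of a group.

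*Cpn1* exceeded the TBM by 2.18, 1.85 and 1.85 in replicates 1, 2 and 3, a 3.89-fold difference (95% interval 3.06 to 4.95, adjusted p = 0.000487 from limma). Its second probe gave 3.09-fold (2.47 to 3.87, adjusted p = 0.00085). *Ttyh1* differed 2.00-fold (1.55 to 2.57, adjusted p = 0.0211), but it was detected on 2 of 3 TBM arrays and entered the test through the CNH alone, so that its fold is set partly by background. The difference was 1.92-fold for *Gcnt2* (1.56 to 2.37, adjusted p = 0.0127) and 1.85-fold for *Tpd52* (1.56 to 2.20, adjusted p = 0.00735). Each of these was higher in the CNH in 3 of 3 numbers. As 1 array of each region is a technical replicate, the 3 numbers, here and below, are not 3 independent samples. Markers of some other cell types also differed between CNH and TBM. In this comparison limma called no tested marker of the endothelial, erythroid, surface ectoderm, macrophage or presomitic and somitic lists. Of the 10 axial progenitor markers it called 1, *Fgf8*, higher in the CNH (1.10, adjusted p = 0.00709), and the median difference of the 10 was 0.19. Their summed normalized signals were 15403 to 16779 on the CNH arrays and 13813 to 14499 on the TBM arrays. Of 6 notochord and floor plate markers, 2 were tested and both were higher in the CNH relative to the TBM (*Chrd* at 1.70, *Shh* at 2.00 on the log2 scale, the latter detected on 2 of 3 TBM arrays), with *Foxa2* detected on no array. Their summed normalized signal over 6 genes was 251 to 644 on the CNH arrays and 156 to 195 on the TBM arrays. The neural tube list had 1 tested marker of 7, *Sox2*, detected on all CNH arrays but 1 of 3 TBM arrays, which was called higher with a TBM level near background, with summed signals of 184 to 236 and 145 to 165. Of 4 tested gut endoderm markers among 7, *Tmprss2* was called higher (1.51), while *Foxa3* (1.43), *Cldn6* (0.55) and *Cdh1* (-0.35) were not called. The summed gut signals were 1200.1 to 1755.0 in the CNH and 709.9 to 782.7 in the TBM, and *Epcam* was detected on no array. The part of axial progenitor, notochord, neural and gut cells in the differences of the 4 genes was not tested.

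These 4 calls rest on the replicate block. Without it the adjusted p was 0.130 for *Cpn1*, 0.525 for *Tpd52* and 1 for *Ttyh1* and *Gcnt2*, and limma called 0 of 12437 probes (229 at an unadjusted p below 0.05, 5 of the 8 genes among them). With replicates 1 and 2 averaged, as if 1 of them were technical, only *Cpn1* kept its call. *Tpd52*, *Gcnt2* and *Ttyh1* lost theirs when CNH replicate 1 (adjusted p = 0.0594, 0.0769 and 0.0594), CNH replicate 2 (0.0534, 0.0765 and 0.0830), TBM replicate 1 (0.0679, 0.0945 and 0.112) or TBM replicate 2 (0.0817, 0.100 and 0.166) was left out. *Gcnt2* and *Ttyh1* also lost them without TBM replicate 3 (0.0701 and 0.0870), and *Ttyh1* without CNH replicate 3 (0.0588). *Ttyh1* was further not called without background correction (0.50, under 1.5-fold), with the deposited values (0.19, adjusted p = 0.159) or with all dim probes kept (adjusted p = 0.154), and *Gcnt2* not with the dim probes kept (0.0890). With 1 array left out, *Cpn1* had adjusted p-values of 0.00046 to 0.00585.

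**Figure D3:**
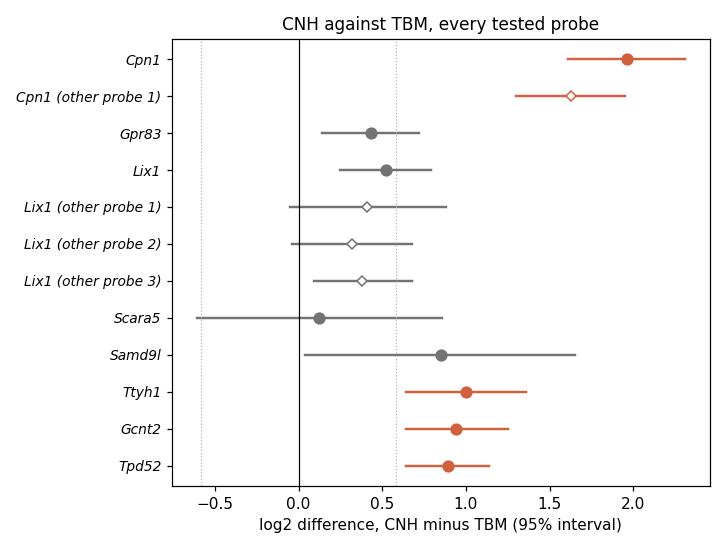
Log2 difference of the CNH from the TBM (x axis) for the 12 tested probes of the 8 genes (y axis), with the 95% interval from limma. Filled circles are the probes that stand for a gene, open diamonds its other probes, orange marks called probes and grey the others, and dotted lines mark 1.5-fold. The 2 probes of *Cpn1* lie furthest right, and the 4 probes of *Lix1* lie close to each other, between 0.32 and 0.52.

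The 4 genes that were not called differed in how well the data limit their difference. *Gpr83* was higher in the CNH in 3 of 3 numbers, but by 0.35, 0.50 and 0.44, a 1.35-fold difference (95% interval 1.11 to 1.64, adjusted p = 0.186 from limma). *Lix1* was at 1.44-fold (1.19 to 1.73, adjusted p = 0.0909), also higher in 3 of 3 numbers, and its other probes at 1.25-fold to 1.33-fold. For both, the interval excludes a 2-fold difference. *Samd9l* was at 1.80-fold, with an interval of 1.03 to 3.14 (adjusted p = 0.371), and its differences of 0.95, 0.28 and 1.31 varied between numbers, so that a 2-fold difference lies within the interval. *Scara5* was at 1.09-fold (0.653 to 1.82, adjusted p = 0.919), with differences of 0.07, 0.56 and -0.26. Its sign changed when CNH replicate 2 was left out (-0.19) or TBM replicate 3 (-0.02). That these 4 miss the threshold does not show equal levels in the CNH and TBM.

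The levels of several genes also differed between replicate numbers, a contrast examined after the values had been seen. Of all tested probes, 55.4% were called between replicate 3 and the mean of replicates 1 and 2 by limma, so that such a call is common on these arrays. *Gcnt2* was 3.50-fold higher in replicate 3 (adjusted p = 3.41e-07), by 1.55 in the CNH, 1.79 in the TBM and 2.07 in the PSM. *Samd9l* was higher by 2.47 in the CNH, 1.77 in the TBM and 0.29 in the PSM, where it was not detected (adjusted p = 0.00122 for the mean). *Scara5* was lower, by -2.05 in the CNH and -1.48 in the TBM, with no detection in the PSM (adjusted p = 0.00315 for the mean). *Gpr83* and *Tpd52* differed by 0.18 and 0.10 (adjusted p = 0.166 and 0.369). The probes of *Lix1* went apart here: the second brightest was lower in replicate 3 by -1.41 in the CNH and -1.07 in the TBM, while the other 3 were higher there, by 0.06 to 0.75. All 4 are annotated to the same transcript record. The strain, the batch and the technical replicate cannot be told apart from the replicate number with these labels.

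**Figure D4:**
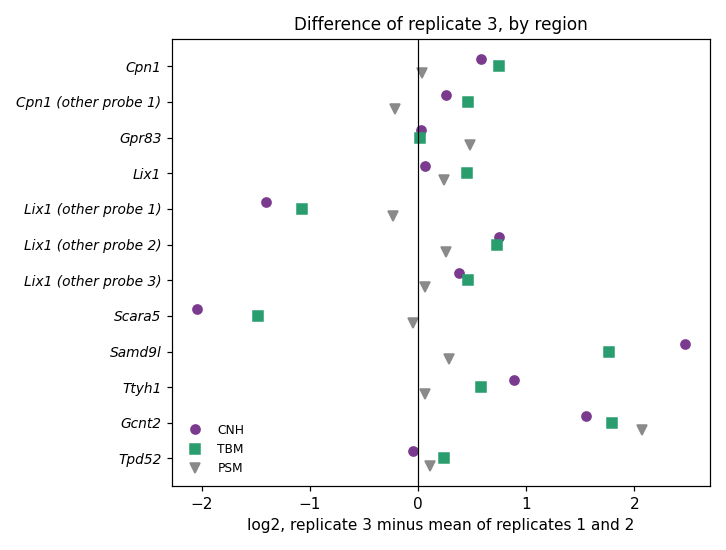
Difference of replicate 3 from the mean of replicates 1 and 2 (x axis, log2) for the 12 tested probes (y axis), in the CNH (circles), TBM (squares) and PSM (triangles). *Samd9l* and *Gcnt2* lie to the right and *Scara5* and the second *Lix1* probe to the left. *Gpr83*, *Tpd52*, the second *Cpn1* probe and the brightest and dimmest *Lix1* probes lie within 0.48 of 0 in each region. In *Samd9l* and *Scara5* the PSM point lies near 0, where the probes were not detected.

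Genes with a profile like that of each member were found by the Pearson correlation over the 9 arrays, after the mean of each replicate number had been removed, among 7820 named genes. Values so centred share the 3 regions, and many genes reach a high correlation, so these are descriptions. *Gpr83* was most like *Greb1*, the hormone receptor cofactor (r = 0.9989), followed by *Wnt5b*, a WNT ligand, and *Prr18*. *Scara5* was most like *Apcdd1*, a WNT inhibitor (r = 0.9990), then *St3gal6* and *Prnp*. *Tpd52* was most like another scavenger receptor gene, *Scara3* (r = 0.9987), then *Cdkn1a*, the cell cycle inhibitor p21, and *Dysf*. *Cpn1* was most like *Gldc*, which encodes the glycine decarboxylase (r = 0.9982), then *Plvap* and *Cdkn1a*. *Gcnt2* was nearest to *Ly6g6d* (r = 0.9982), *Sbk1* and *Tnnt1*, and *Lix1* to the interferon-induced factor *Irf1* (r = 0.9979), *Dock6* and *H2-DMa*. *Samd9l* had *Bmp1* (r = 0.9945), *Ppm1m* and *Tcf4* as nearest genes, and *Ttyh1* had *Cd47* (r = 0.9953), *Rprm* and *Ramp2*. None of the 8 was among the 3 nearest genes of another. Between the 8 genes themselves r ran from 0.749, for *Scara5* with *Ttyh1*, to 0.993, for *Gpr83* with *Lix1*, over 28 pairs.

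Relatives and known partners of the 8 genes were examined from 12 lists with 122 entries, of which 113 were on the array and 43 were tested. These lists were written with earlier results of the data known, those of *Irf1*, *Scara3* and *Samd3* among them, so that their counts are not independent evidence. Of the 43, 11 (25.6%) were called higher in the CNH than in the PSM by limma, against 7.43% of named genes, and 8 (18.6%) in the TBM, against 5.92%. In the CNH 2 were lower, against 4.85% of named genes, and in the TBM 1, against 4.54%. Between CNH and TBM 2 were called, against 1.2%. Their median log2 differences from the PSM were 0.16 and 0.14, against -0.041 and -0.023 over named genes.
Among scavenger receptors, *Scara3* was higher than the PSM in the CNH (log2 difference 1.48) and TBM (0.73), and the CNH exceeded the TBM (0.75, adjusted p = 0.0127). *Gcnt1*, a branching enzyme related to *Gcnt2*, was higher in both regions (1.40 and 1.34), as were the chain-extending enzyme *B3gnt8* (1.18 and 1.11) and the sialyltransferase *St3gal6* (1.08 and 1.09), whereas *B3gnt5* was lower in the CNH (-0.70). Of 22 interferon-stimulated genes 20 were on the array and 4 were tested. Of these, 2 were higher in both regions, *Irf1* (2.43 and 1.98) and *Oasl2*, at least 1.91-fold in the CNH and 2.02-fold in the TBM. *Ifit2* (-0.55 and -0.37) and *Irf9* (0.11 and 0.32) were not called. The brightest probes of *Isg15*, *Ifit1*, *Irf7*, *Rsad2*, *Mx1* and *Mx2*, among others, were detected on no array. Of the proprotein convertases, *Furin* was higher (1.46 and 1.24) and *Pcsk6* lower (-1.61 and -1.73). *Cpm*, a membrane-bound carboxypeptidase, was higher (0.96 and 0.72). The list of kinin and anaphylatoxin receptors, which also holds *Kng1*, had 6 genes on the array, and none met the detection rule for a test. In *Samd3* the CNH exceeded both the PSM (1.48) and the TBM (1.67, adjusted p = 0.0107). The channel subunit *Lrrc8d* (0.80) and the annexin *Anxa6* (0.84) were higher in the CNH only by call, and the differences between CNH and TBM were not called for them (adjusted p = 0.0898 and 0.193). None of the 5 tested genes of the *Lix1* list, which holds hippo pathway genes, was called in any comparison by limma (3 at an unadjusted p below 0.05). The 1 tested relative of *Gpr83* among 13 neuropeptide-type receptors on the array was not called either (0 at an unadjusted p below 0.05).

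Markers of other cell types were also set beside the differences from the PSM. Of 6 tested endothelial markers, 3 were higher in both the CNH and the TBM, *Etv2* (1.70 and 1.35), *Lmo2* (1.31 and 1.33) and *Cldn5* (0.86 and 0.71). *Pecam1* was called in the CNH only (0.63), and *Cdh5* (0.29 and 0.30) and *Tek* (0.67 and 0.41) in neither. Their summed normalized signals over 7 genes were 5041 to 5760 in the CNH, 4697 to 5880 in the TBM and 2022 to 2770 in the PSM. *Lmo2*, at mean log2 levels of 12.17, 12.19 and 10.86 in these regions, makes up most of this sum. Erythroid markers were higher for 2 of 5 in the CNH and 1 of 5 in the TBM, and their summed signals overlapped between regions. Gut endoderm markers were higher for 2 of 4 tested in both regions, *Tmprss2* (3.48 and 1.97) and *Foxa3*, which the PSM did not detect (at least 4.59-fold and 1.70-fold), while *Cdh1* was lower in both (-1.12 and -0.77) and *Cldn6* in the TBM (-0.98). The summed gut signals were 855.8 to 1364.4 in the PSM, overlapping those of the CNH and above those of the TBM. Of the notochord and neural markers tested, *Shh* (at least 4.49-fold), *Chrd* (1.95) and *Sox2* (at least 2.77-fold) were higher in the CNH than the PSM, and none of the 3 was called in the TBM by limma (adjusted p = 0.218, 0.322 and 0.474). Surface ectoderm markers were lower than the PSM for 2 of 4 tested in the CNH and 3 in the TBM. Of macrophage markers 2 were tested and neither was called (1 at an unadjusted p below 0.05 in any comparison), and *Ptprc*, *Adgre1* and *Tyrobp* were detected on no array. The part of endothelial, gut, notochord and neural cells in the levels of the 8 genes was not tested.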

How the data were processed

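RNA from pooled pieces of the CNH, TBM and PSM was amplified and run on Illumina Ref6v2 arrays, 3 per region. The authors deposited a table of signal intensities on a linear scale, not normalized, each with a detection p-value against the negative controls. The authors also deposited values on a log2-like scale, transformed by VST and normalized by RSN in lumi, which were used as an alternative. Here intensities were corrected by neqc (offset 16), quantile normalized and fitted in limma 3.58.1 under R 4.3.3, over 12437 probes detected (detection p below 0.01) on all arrays of at least 1 region. The model had the regions and the replicate number as a block (4 residual degrees of freedom), since the methods took batch effects into account. Deviations from region means correlated at 0.858 to 0.964 between arrays with the same number, but also at 0.863 to 0.893 between numbers 1 and 2. Calls needed an adjusted p below 0.05 (Benjamini-Hochberg) and 1.5-fold. The brightest tested probe stood for a gene. A lower bound set the bright mean against, on each dim array, whichever was higher, the lowest detected value or the value of the probe itself. Of 45281 probes, 34885 had 1 gene symbol, 18 several and 10378 none. The fit was also run on simulated data. The 8 genes and all lists were chosen with earlier results of these data known. Named genes were the 8 members with all probes, list genes called in any comparison, and the 3 genes most like each member. The number of arrays limits the precision.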

Additional observations from a re-analysis of the deposited data

How the results depend on the processing

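None of the 16 fitted differences from the PSM changed sign over the 20 alternatives, of which 9 left out 1 array. The choice of the genes favoured this, and leaving out the replicate block or the filter on dim probes does not alter a fitted difference. The number of the 8 genes that met the rule for a call above the PSM, which their choice fixed, became 5 in the CNH and 4 in the TBM with no replicate block, and 2 and 2 with only probes detected on all 9 arrays, where the other 6 genes gave no value. In the TBM they were 5 with the deposited values. Probes called above the PSM, 828 in the CNH and 668 in the TBM, became 194 and 123 with no replicate block, 173 and 138 with the deposited values, 443 and 344 with no background correction, 525 and 420 with an offset of 50, and 533 in the CNH with probes detected on all 9 arrays. Between CNH and TBM the 4 called genes became 0 with no replicate block (5 at an unadjusted p below 0.05 by limma), 2 with no filter on dim probes or with probes detected on all 9 arrays, and 1 with replicates 1 and 2 averaged, and leaving out 1 array gave 1 to 4. The 125 probes called there became 0 with no replicate block (229 unadjusted), 60 with no background correction, 15 with the deposited values, 20 with no filter, 76 with detection on all 9 arrays and 31 with replicates 1 and 2 averaged. Leaving out 1 array gave 18 to 172 (without TBM replicate 2 and PSM replicate 3). It gave 21 without CNH replicate 1, 28 when CNH replicate 2 was dropped, and 22 and 46 for TBM replicates 1 and 3. The 13 relatives and partners called in any comparison became 6 with no replicate block and 4 with the deposited values. For *Scara5* the CNH minus TBM difference reversed to -0.19 without CNH replicate 2 and -0.02 without TBM replicate 3, and leaving out 1 array gave -0.19 to 0.55. *Gpr83* and *Lix1*, not called between CNH and TBM, stayed so in 19 of 19 settings, with 0.23 to 0.51 and 0.19 to 0.65. Without background correction their adjusted p from limma was 0.0341 and 0.0444, and only the 1.5-fold rule left them uncalled. The cause of these changes was not tested.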
